A study of Mus musculus with 2 samples.

Results

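The 37 genes described here act in the repair of broken or crosslinked DNA and in the checkpoint signals that accompany it. They were taken by symbol from a list of Fanconi, recombination, mismatch repair, end joining and checkpoint genes, and all 37 were found among the 24203 genes that the arrays measured. Single-colour NimbleGen arrays measured expression in LT-HSCs, long-term haematopoietic stem cells that maintain blood formation, which were sorted from the marrow of C57BL/6 mice aged 8 weeks. The knockout group lacks cia-cGAS, a circular RNA according to the labels, and the wild-type group carries it. The study asked how losing it alters gene expression in these cells. Each group has 1 array, so that differences have no replicate check and none was tested. The sources used here do not give the sort markers, the number of animals behind each RNA or the way the deletion was made. No value for the circular RNA itself was analysed here.

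Cells mend a double-strand break either by homologous recombination, which copies an intact sister chromatid after replication, or by non-homologous end joining, which seals the ends directly. The Fanconi proteins recognise and unhook crosslinks between the strands and hand the resulting break to the recombination proteins, mismatch repair corrects copying errors behind the replication fork, and the kinases ATM and ATR halt the cell cycle while repair proceeds. Blood stem cells depend on these systems, and inherited loss of a Fanconi gene leads to bone marrow failure in people. Many genes of recombination and of the Fanconi pathway are transcribed mainly in dividing cells, whereas end joining is available throughout the cell cycle.

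Most of the 37 genes were dim. Detection was judged against 1029 rows of receptor genes for smell, taste and pheromones, whose 95th percentile, called the floor below, lay at 8.97 in the knockout and 9.11 in the wild type on the log2 scale. Of the 37 genes, 14 lay above the floor on both arrays, 1 in the knockout alone, 4 in the wild type alone and 18 on neither. A difference, always knockout minus wild type on the log2 scale, is a measurement for the first 14. Where only 1 array passed, the fold is a bound set by the other array's floor, and for the remaining 18 both values are given without a fold.

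Among the 14 genes above both floors, the knockout level of Xrcc6 was at least 2-fold lower and that of Fanca at least 2-fold higher. Over all 9242 genes above both floors, 4.19% were lower by that much and 5.38% higher, 9.57% in either direction, so that 1 gene of 14 each way is near the background. For the 5 genes above 1 floor no bound reached 2-fold. The 10859 genes above either floor held 4.06% lower and 5.53% higher. The median difference of the 14 genes was 0.02, with 7 below 0 and 7 above, and that of all 9242 genes was -0.04. Medians of the list over genes above both floors were added after seeing the data. The planned median, over the 19 genes above either floor, was -0.09, beside -0.02 for the 10859 genes. Both of these medians count genes above 1 floor at their raw differences. With dim values included, 28 of the 37 genes had a negative difference and the median was -0.22, beside 52.9% and -0.04 for all 24203 genes. The shift to negative values in the list therefore lay among genes below a floor on at least 1 array. Single values carry little weight there, and a gene that passed the floor in the wild type alone had to be lower in the knockout. Of all 24203 genes, 13344 were below both floors as well, while 52.9% of the 24203 were negative. What lies behind the shift in the list was not tested.

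**Figure D1:**
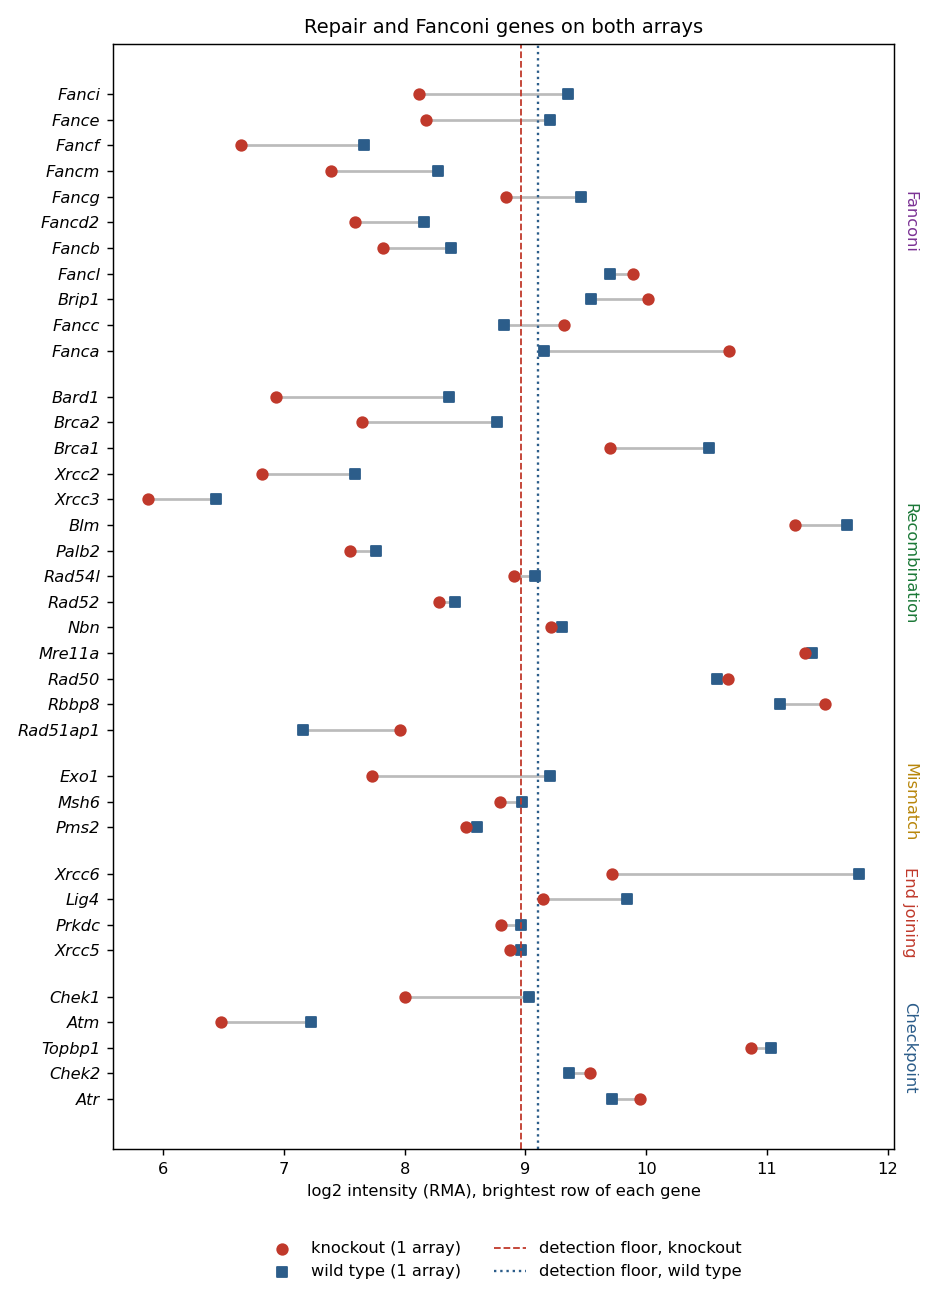
Log2 intensity of the brightest row of each of the 37 genes (x axis) in the knockout (red circles, 1 array) and the wild type (blue squares, 1 array), grouped by repair pathway, with the detection floor of each array as a vertical line. Xrcc6 has the widest gap, 9.72 in the knockout and 11.76 in the wild type, and 18 genes lie left of both floors.

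The end joining group held the lowest value of the list. Xrcc6 encodes Ku70, which with Ku80 forms the ring that grips broken DNA ends and recruits the end joining kinase. It read 842 intensity units in the knockout and 3467 in the wild type, 9.72 and 11.76 on the log2 scale, and was 4.12-fold lower (transcript on MM9 chromosome 15 from 81846798 to 81870514). A second row of Xrcc6, at 9.28 in the knockout and 11.08 in the wild type, was lower as well, with a difference of -1.80 beside -2.04 for the brighter row. Of the 9242 genes above both floors, 23 including Xrcc6 had a difference this low or lower.

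Its partner gene Xrcc5, which encodes Ku80, read 8.88 in the knockout and 8.96 in the wild type, just below both floors, and no fold can be given. The catalytic subunit gene of the same complex, Prkdc, read 8.79 in the knockout and 8.97 in the wild type, also below both floors, and its dimmer row differed by -0.64. Lig4, the ligase that seals the joined ends, read 9.14 in the knockout and 9.84 in the wild type and was 1.62-fold lower, from its single row. All 4 end joining genes had negative differences, but 2 of them were not above the floor on either array.

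The Fanconi group was split between genes that were higher and genes that were lower in the knockout. Fanca, a scaffold of the core complex that attaches ubiquitin to FANCD2 and FANCI, read 10.69 in the knockout and 9.15 in the wild type and was 2.90-fold higher (MM9 chromosome 8 from 125810088 to 125842476). That fold rests on 1 of its 4 rows. The other 3 rows lay below both floors with differences of 0.61, -0.05 and -0.41, and the mean of all rows differed by 0.42. Fancl, the ubiquitin ligase subunit of the complex, read 9.89 in the knockout and 9.70 in the wild type, and its rows differed by 0.20 and 0.10. Brip1, the helicase gene also known as Fancj, read 10.02 in the knockout and 9.54 in the wild type and was 1.39-fold higher from its only row. Fancc, a core complex gene, read 9.32 in the knockout and 8.82 in the wild type, below its floor, which gives a level at least 1.16-fold higher. That bound rests on 1 row, and its other rows, below both floors, differed by 0.17 and -0.03.

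On the lower side stood Fanci, Fance and Fancg, each detected in the wild type alone. Fanci, whose product forms the ubiquitin-tagged clamp with FANCD2, read 8.12 in the knockout and 9.35 in the wild type and was at least 1.31-fold lower. For Fance, a core subunit that binds FANCD2, the levels were 8.17 in the knockout and 9.20 in the wild type, at least 1.18-fold lower, but its dim rows differed by -0.73 and 0.36, and the mean of its rows by -0.47. Fancg, another core subunit, read 8.84 in the knockout and 9.46 in the wild type and was at least 1.41-fold lower, with a second, dim row at -0.60. The wild-type values of all 3 genes lay little above the floor, so that much larger folds could not have been seen.

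The other 4 Fanconi genes were below both floors. Fancd2, the central target of the core complex, read 7.59 in the knockout and 8.16 in the wild type. Fancb read 7.82 in the knockout and 8.38 in the wild type, and Fancf 6.64 in the knockout and 7.67 in the wild type, both being core subunits. Fancm, the translocase that anchors the core complex on DNA, read 7.39 in the knockout and 8.28 in the wild type, and its other 2 rows had positive differences of 0.11 and 0.35. All 4 brightest rows were lower in the knockout, but none of these levels exceeded the 95th percentile of the receptor rows.

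The recombination genes are given in 2 sets. Those that sense and trim broken ends were all above both floors, and their brightest rows differed by 0.37 or less in size. Mre11a, the nuclease of the MRN complex, read 11.32 in the knockout and 11.37 in the wild type. Nbn, its regulatory subunit, read 9.21 in the knockout and 9.30 in the wild type, and its rows differed by -0.09 and -0.14. Rbbp8, which encodes the resection factor CtIP, read 11.48 in the knockout and 11.11 in the wild type and was 1.29-fold higher, with its other rows at 0.90 and 0.68, all 3 rows being higher in the knockout.

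The remaining MRN gene, Rad50, gave a contradictory reading. The row used here, on MM9 chromosome 11 from 53463020 to 53482015, read 10.68 in the knockout and 10.59 in the wild type, a difference of 0.09. A second row, from 53505424 to 53520821 and so from another stretch of the gene, read 778 intensity units in the knockout and 2046 in the wild type, a log2 difference of -1.39. Both rows were above both floors, so that Rad50 has no agreed direction in these data.

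Of the other 10 recombination genes, which include Brca1 although it also acts in resection, 2 were above both floors and both were lower in the knockout. Brca1, which promotes resection and later steps of recombination, read 9.70 in the knockout and 10.52 in the wild type and was 1.77-fold lower (MM9 chromosome 11 from 101350077 to 101413187). Its other 2 rows, below both floors, differed by 0.07 and 0.38, so that the lower value rests on 1 row. Blm, the helicase that undoes crossed recombination intermediates, read 11.23 in the knockout and 11.66 in the wild type and was 1.35-fold lower, and its second row, at 11.24 in the knockout and 11.62 in the wild type, differed by -0.38.

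The other 8 were below both floors. Bard1, the partner of BRCA1, read 6.94 in the knockout and 8.37 in the wild type. Brca2, which acts in the strand exchange step of recombination, read 7.65 in the knockout and 8.77 in the wild type, and Palb2, which joins the products of Brca1 and Brca2, 7.55 in the knockout and 7.77 in the wild type. Xrcc2 and Xrcc3, which also act in strand exchange, read 6.82 and 5.88 in the knockout, against 7.59 and 6.44 in the wild type. Rad54l, which encodes a motor protein that remodels DNA during recombination, came closest to the floor with 8.91 in the knockout and 9.08 in the wild type. Rad52, at 8.29 in the knockout and 8.42 in the wild type, had 2 further rows with positive differences of 0.21 and 0.25. Rad51ap1, a recombination cofactor gene, was the only one of the 8 with a positive difference, at 7.97 in the knockout and 7.16 in the wild type, and its 3 rows had both signs.

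Of the 3 mismatch repair genes, 1 was above the floor in the wild type alone and 2 were below both floors. Exo1, the exonuclease that removes the faulty strand and also trims broken ends, read 7.73 in the knockout and 9.20 in the wild type, at least 1.18-fold lower from its only row. Msh6, whose product recognises mismatches, read 8.79 in the knockout and 8.97 in the wild type. Pms2, the endonuclease subunit that nicks the strand, read 8.51 in the knockout and 8.60 in the wild type, and its 4 rows were all lower in the knockout, with differences of -0.73 to -0.09.

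Checkpoint genes above both floors differed by 0.23 or less in size. Atr, the kinase that responds to stalled replication, read 9.94 in the knockout and 9.72 in the wild type, with other rows at 0.00 and -0.20. Topbp1, which switches ATR on, read 10.87 in the knockout and 11.03 in the wild type, with a dim row at -0.78. Chek2, the kinase that relays the ATM signal, read 9.54 in the knockout and 9.36 in the wild type, whereas its dim row differed by -0.72. The ATR effector kinase gene Chek1 was below both floors, at 8.00 in the knockout and 9.03 in the wild type, and both of its rows were lower in the knockout, with differences of -1.02 and -1.38. Atm itself had 1 row, far below both floors at 6.48 in the knockout and 7.22 in the wild type.

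**Figure D2:**
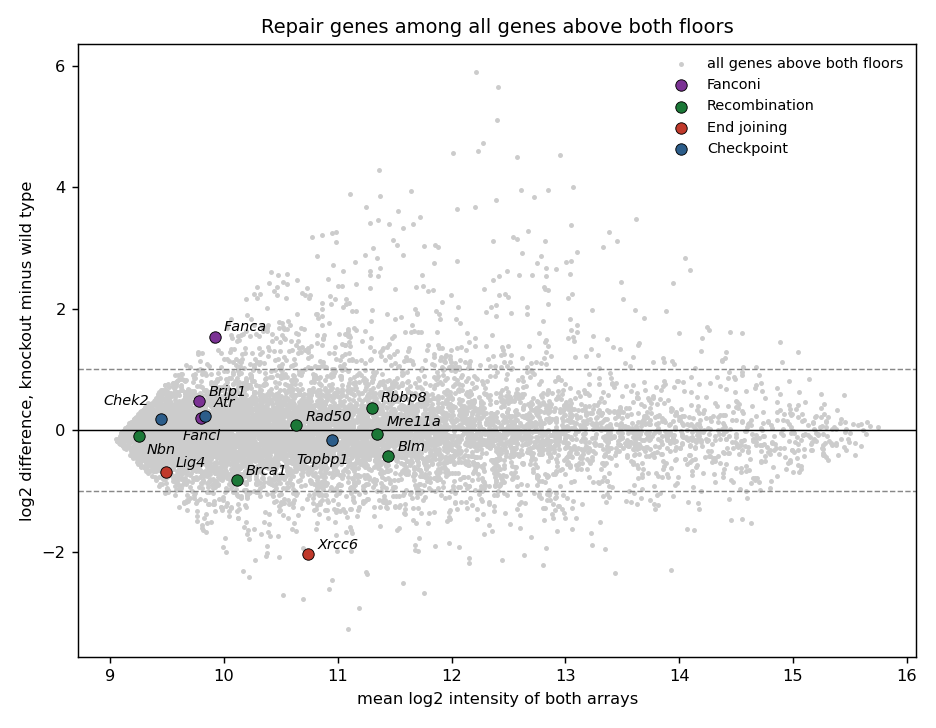
Log2 difference (y axis, knockout minus wild type) against mean log2 intensity of both arrays (x axis) for the 9242 genes above both floors (grey points, 1 point a gene) and the 14 repair genes among them (coloured by group, named). Dashed lines mark 2-fold. Xrcc6 at -2.04 and Fanca at 1.54 lie outside them and the other 12 inside.

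The spread between rows of the same gene is the measure of error used here, and it covers the choice of probes, not animals or arrays. A standard error column in the files was not used, since its definition is not stated. For the 2895 genes with at least 2 rows above both floors, the SD between log2 differences of rows of the same gene, pooled over genes, was 0.37, and for the 6 such genes of the list it was 0.47. The SD of the list is drawn up mainly by Rad50, with rows at 0.09 and -1.39. The differences of Xrcc6, Fanca, Brca1, Lig4 and Brip1 exceeded both SDs in size and that of Blm exceeded 0.37 alone. Brip1, at 0.477 from its only row, passed the list SD of 0.467 narrowly. Those of Rbbp8, Atr, Fancl, Chek2, Topbp1, Rad50, Nbn and Mre11a exceeded neither. Passing 1 SD is a description of size and not a test, since error alone often exceeds it. Of the 26 genes with several rows, 14 were lower in the knockout on every row, 2 (Fancl and Rbbp8) were higher on every row and 10 had rows of both signs. Over all 76 rows of the list, 71.1% had a negative difference, beside 51.6% of all rows with a gene ID.

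**Figure D3:**
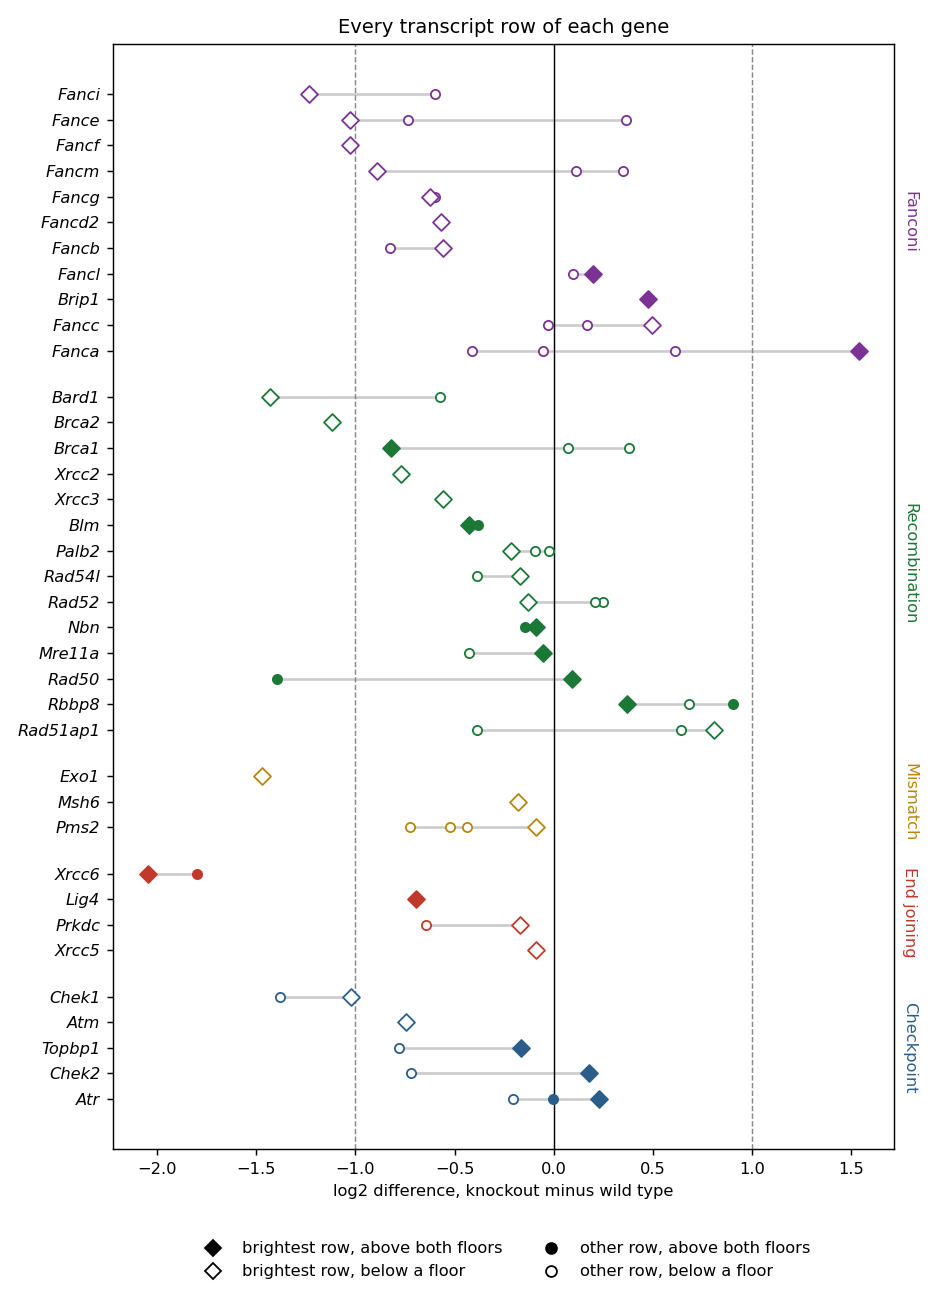
Log2 difference (x axis, knockout minus wild type) of every transcript row of the 37 genes, with diamonds for the brightest row, circles for other rows, filled symbols for rows above both floors and open symbols for rows below a floor. Dashed lines mark 2-fold. Both Xrcc6 rows lie at -1.80 or below, while the rows of Fanca spread from -0.41 to 1.54 and those of Rad50 from -1.39 to 0.09.

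The groups, set side by side over every gene with dim values included, had median differences of -0.57 for the 11 Fanconi genes, -0.19 for the 14 recombination genes, -0.18 for the 3 mismatch genes, -0.43 for the 4 end joining genes and -0.17 for the 5 checkpoint genes. Negative differences were found in 7, 11, 3, 4 and 3 of them. Over genes above both floors the order changed: the median was 0.48 for 3 Fanconi genes, -0.07 for 6 recombination genes, -1.37 for 2 end joining genes and 0.18 for 3 checkpoint genes, and no mismatch gene remained. Within recombination, the 4 genes of end sensing and trimming, all above both floors, had a median of 0.02, with Rad50 taken at its brighter row. The other 10 had -0.49 with dim values included, 8 of them being below both floors. Their 2 genes above both floors had a median of -0.63. Genes are not replicates, and no difference between the groups was tested.

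Repair genes outside the 37 showed where else 2-fold differences lay. In 8 further lists of the same and neighbouring pathways, 128 genes were measured, 71 of them above both floors and 86 above either. Of the 86, 7 were at least 2-fold lower in the knockout and 2 were higher by that much, beside 4.06% and 5.54% of the 10840 genes above either floor that remain without the 37. The median of the 71 genes was -0.26, with 53 (74.6%) below 0, beside 53.6% of all 9242 genes above both floors. These lists were drawn up with earlier results of these arrays known.

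The 7 lower genes were Lig1, Dntt, Tipin, Fen1, Neil3, Rpa1 and Gtf2h2. Lig1, the ligase that joins Okazaki fragments and completes excision repair, read 12.78 in the knockout and 15.08 in the wild type and was 4.91-fold lower, with its second row at -1.45. Dntt, which adds untemplated bases at joined immunoglobulin ends in lymphoid precursors, read 9.01 in the knockout and 11.32 in the wild type and was 4.97-fold lower. That fold comes from its single row, and its knockout value lay just above the floor of 8.97. Tipin, a fork protection gene, was 3.47-fold lower (9.32 in the knockout, 11.12 in the wild type), and Fen1, the flap endonuclease gene, 3.22-fold lower (513 intensity units in the knockout, 1649 in the wild type).

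Smaller folds were seen for the glycosylase gene Neil3, 2.33-fold lower, for Rpa1, the large subunit of the single-strand binding protein, 2.28-fold lower, and for Gtf2h2, a subunit of the repair and transcription factor TFIIH, 2.10-fold lower. Every row of Lig1, Tipin, Fen1, Neil3 and Rpa1 was lower in the knockout, whereas the 5 rows of Gtf2h2 ran from -1.07 to 0.03. The 2 higher genes were Mus81, a crosslink endonuclease gene, 2.06-fold higher from its brightest row with rows from -0.29 to 1.04, and Dclre1c, which encodes the end-processing nuclease Artemis, at least 2.01-fold higher, with all rows higher in the knockout.

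By list, no translesion gene of 12 passed 2-fold, and the 2 largest of those measured on both arrays were -0.32 for Ube2a, which encodes a ubiquitin-conjugating enzyme, and -0.28 for the polymerase gene Rev3l. With dim values counted, the primase-polymerase gene Primpol and the polymerase gene Polk stood furthest out. Primpol was at least 1.07-fold higher, being above the floor in the knockout alone, and Polk at least 1.21-fold lower, being above it in the wild type alone. The mismatch list outside the 3 genes above gave Lig1 alone, the checkpoint list Tipin alone, the recombination list Rpa1 alone and the base excision list Fen1 and Neil3. Hus1, a subunit of the checkpoint clamp that TOPBP1 binds, missed 2-fold narrowly at 9.94 in the knockout and 10.93 in the wild type, with rows of both signs. It was chosen for mention after its value was seen.

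**Figure D4:**
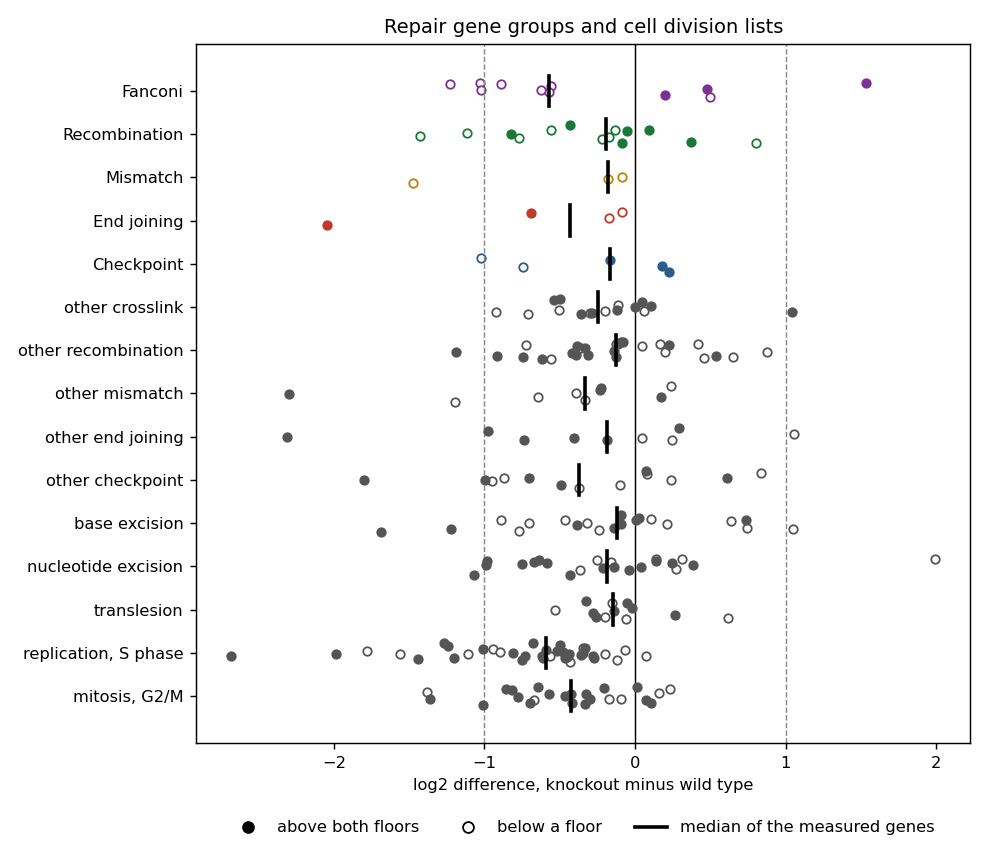
Log2 difference (x axis, knockout minus wild type) of each measured gene in the 5 repair groups of the 37 genes, 8 further repair lists and 2 cell division lists. Filled points are genes above both floors, open points lie below a floor, black bars are medians over all measured genes of a list, and dashed lines mark 2-fold. The replication list has a median of -0.59 and the Fanconi group -0.57, but every Fanconi gene left of 0 is an open point. In the replication list, all 25 genes above both floors lie left of 0.

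Cell division genes and markers of other marrow cells differed on the same arrays. Of 37 replication and S phase genes, 30 were above a floor, and of these 8 were at least 2-fold lower and 0 higher. The shares over all 10859 genes above either floor were 4.06% and 5.53%. The summed intensity of the 37 genes was 53540 in the knockout and 107786 in the wild type. The 24 mitosis genes summed to 68053 in the knockout and 97046 in the wild type. Of the 20 above a floor, 2 were at least 2-fold lower. Markers of the B lineage, in which Dntt is also used, summed to 8109 in the knockout and 35266 in the wild type. Of 18 measured, 7 were above the floor in the knockout and 15 in the wild type, and Cd79a and Igll1 were among those below both. Erythroid markers summed to 132064 in the knockout and 188030 in the wild type, whereas Klf1, Epor and Tspo2 were below both floors. Neutrophil markers summed to 330972 in the knockout and 239329 in the wild type, monocyte markers to 108956 in the knockout and 82948 in the wild type (Ctss alone 31733 in the knockout and 11097 in the wild type), T and NK cell markers to 8658 in the knockout and 8682 in the wild type, and megakaryocyte markers to 5682 in the knockout and 15181 in the wild type, most of that gap being Ppbp. Of the 10 monocyte markers above both floors, 4 had negative differences. In bulk RNA, fewer cells of a type and less RNA per cell cannot be told apart, and the part of these cells in the repair gene values was not tested.

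The labelled cell type was checked against 19 stem cell markers, of which 11 were above both floors, among them Kit and Ly6a. Procr and Slamf1 were below both floors. Interferon-stimulated genes summed to 543964 in the knockout and 69849 in the wild type, and their median of 3.11 exceeds the difference of every repair gene named here. Of 14 reference genes measured, 13 were above both floors, with a median of -0.04 and a range from -1.13 to 0.76. The lowest was Tfrc, which is also in the erythroid list.

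Upstream DNA was examined in the 30 of the 37 genes with a RefSeq window (GRCm38.p6), taking the 250 bases before the start farthest upstream. The motif of E2F, the factor family that drives S phase genes, was searched as TTTCCCGC, TTTGGCGC, TTTCGCGC and TTTGCCGC on both strands. It was found in 6 of the 30 windows (Xrcc6, Topbp1, Chek2, Fancg, Brca2 and Bard1), beside 2.43% of 17492 protein-coding genes. The windows of the list were richer in G and C, with a median of 58.6%, against 55.2% for protein-coding genes. Of the 6 genes, Xrcc6, Topbp1 and Chek2 were above both floors, with differences of -2.04, -0.17 and 0.18. Of all 6, 5 had negative differences, with a median of -0.87, beside 18 of 24 and -0.20 for the genes without a match. That count includes Fancg at -0.62 and, below both floors, Brca2 at -1.12 and Bard1 at -1.43, and no difference between genes with and without a match was tested. These 3 windows and that of Fancg, detected in the wild type alone, are shown with the match in capitals, 5′ to 3′ on the strand of the gene.
Xrcc6 (chr15:82016119-82016368, plus strand): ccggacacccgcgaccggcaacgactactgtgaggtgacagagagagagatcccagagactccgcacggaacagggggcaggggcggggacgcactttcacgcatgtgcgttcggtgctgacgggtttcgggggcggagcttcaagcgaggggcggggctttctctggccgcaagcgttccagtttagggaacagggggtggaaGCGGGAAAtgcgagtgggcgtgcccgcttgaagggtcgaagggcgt
Topbp1 (chr9:103305077-103305326, plus strand): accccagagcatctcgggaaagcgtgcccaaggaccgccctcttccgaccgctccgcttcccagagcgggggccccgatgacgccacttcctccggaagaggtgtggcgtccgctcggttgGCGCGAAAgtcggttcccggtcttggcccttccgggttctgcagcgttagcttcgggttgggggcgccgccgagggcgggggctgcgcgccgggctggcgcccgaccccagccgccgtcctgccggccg
Chek2 (chr5:110839733-110839982, plus strand): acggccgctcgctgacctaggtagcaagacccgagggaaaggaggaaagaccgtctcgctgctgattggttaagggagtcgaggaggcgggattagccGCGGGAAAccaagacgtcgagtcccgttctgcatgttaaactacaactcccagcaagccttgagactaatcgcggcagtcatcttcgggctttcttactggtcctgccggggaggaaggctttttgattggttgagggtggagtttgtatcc
Fancg (chr4:43010302-43010551, minus strand): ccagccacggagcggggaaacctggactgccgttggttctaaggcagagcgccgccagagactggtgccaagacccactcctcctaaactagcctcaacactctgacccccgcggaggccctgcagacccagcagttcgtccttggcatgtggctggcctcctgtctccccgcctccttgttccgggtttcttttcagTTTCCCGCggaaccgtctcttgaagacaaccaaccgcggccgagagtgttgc

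The matches began 46 bases before the start of Xrcc6, 129 before that of Topbp1, 152 before that of Chek2 and 52 before that of Fancg. The letters were TTTCCCGC for Xrcc6, Chek2 and Fancg, and TTTCGCGC for Topbp1, and they lay on the opposite strand in all but Fancg. Other elements searched were CCAAT, found in 18 of the 30 windows and in 36.5% of those of protein-coding genes, TTTGAA, a cell cycle element, found in 1 window and in 15.1%, and the core of interferon response elements, GAAA repeated after any 2 bases, found in 4 windows (Fancg, Brip1, Brca2 and Chek1) and in 3.04%. Matches of different motifs overlapped 1 time in these windows. Of the 4 genes with the interferon element, 3 had negative differences, Fancg at -0.62 and, below both floors, Brca2 at -1.12 and Chek1 at -1.02, whereas Brip1, the one above both floors, had 0.48.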

How the data were processed

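Per the file headers, each deposited value is an intensity on a linear scale that summarises the probes of 1 transcript row, and 44155 of 44170 rows rest on 3 probes. The submitters' processing notes name RMA without a version. RMA in its usual form equalises the distributions of arrays, so each difference is relative to the other genes, and array medians were 271 in the knockout and 273 in the wild type. The files place transcripts on MM9.

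Values were put on the log2 scale with Python 3.11.15 and pandas 2.3.3 and were not normalized again. A gene ID was given for 41886 rows. Each gene is represented by its brightest row, judged on the mean of both arrays, and symbols came from the files or, by gene ID, from a RefSeq table (GRCm38.p6). With 1 array a group, there are no tests or p-values, and the number of arrays limits the precision. Calculations were tested on simulated data, with changes planted only in genes far above the floor. Such a test does not cover changes in dim genes, and most of the list is dim.

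The genes and lists were chosen with earlier results of these data known. Each of the 37 genes is named. Other repair genes are named where they passed 2-fold, and in the translesion list, where none did, as the 2 largest in size, beside the 2 largest measured on both arrays, which were added after their values were seen. Any other is said to be chosen after its value was seen. Alternatives were other floors, rows averaged, centring on a loess curve (span 0.3), the series-wide table of the same intensities, values raised to the floor, other folds, means and regrouped genes.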

Additional observations from a re-analysis of the deposited data

How the results depend on the processing

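No paired analysis was possible because each group has 1 array. For the 19 genes above either floor the median difference was -0.09, with 1 gene at least 2-fold lower and 1 higher. By group it was 0.20 for Fanconi, -0.07 for recombination, -1.47 for mismatch (1 gene), -1.37 for end joining and 0.18 for checkpoint genes. These medians count genes above 1 floor at their raw differences. The mismatch value is that of Exo1, above the floor in the wild type alone, whose bound is only 1.18-fold lower. With a floor at the median of all rows, the medians were -0.56 for Fanconi, -0.18 for mismatch and -0.43 for end joining genes, and 4 genes were at least 2-fold lower. With a floor at the 99th percentile of receptor rows they were 1.54 for Fanconi (Fanca alone), -2.04 for end joining (Xrcc6 alone) and -0.17 for checkpoint genes, and 0 genes were 2-fold higher, since Fanca was then above the floor in the knockout alone and its bound was smaller. With no floor, the median of all genes was -0.22, with -0.57 for Fanconi, -0.18 for mismatch, -0.43 for end joining and -0.17 for checkpoint genes, and 8 genes were lower. Averaging rows gave -0.41 over all, -0.26 for recombination and -0.23 for checkpoint genes, and 0 genes higher. With values under the floor raised to it, mismatch genes gave -0.24. Means in place of medians gave -0.27 over all and -0.025 for Fanconi genes. At 1.5-fold, 3 genes were lower, and at 3-fold, 0 were higher. Counting Exo1 and Brip1 with recombination gave -0.21 for Fanconi genes. Over genes above both floors, an alternative added after seeing the data, the medians were 0.018 over all and 0.48 for Fanconi genes.

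Xrcc6 stayed lower under every alternative run for it, at -1.92 with rows averaged, -2.005 after loess centring and -2.04 from the series-wide table. These alternatives could move Xrcc6 little. Its rows stood at -2.04 and -1.80 before averaging, loess centring moved no gene of the list by more than 0.07, and the series-wide table holds the same intensities. Fanca was 0.42 with rows averaged. Row averaging changed the sign of 3 of the 37 differences, and loess centring and the series-wide table changed 0. The sign of the Fanconi and checkpoint medians thus depends on the floor, and end joining and mismatch medians rest on 2 genes and 1 gene. With 1 array a group, array, animal and genotype cannot be told apart.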
